A study of Mus musculus with 2 samples.

Results

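Nuclear-encoded subunits of the mitochondrial respiratory chain and ATP synthase were examined in mouse liver after oral titanium dioxide nanoparticles. Genes were chosen by name alone, as those named Nduf followed by a, b, c, s or v and a digit, Sdha to Sdhd, and names that begin with Uqcr, Cox4 to Cox8 or Atp5, without a hyphen. This gave 85 of 37146 gene identifiers, with 84 names because Ndufb8 has a pair of identifiers. By name they comprise 38 identifiers for complex I, 4 for complex II, 8 for complex III, 17 for complex IV and 18 for complex V. Cox4i1, Cox4nb and Ndufb1 were not analysed here.

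The respiratory chain sits in the inner mitochondrial membrane. Complexes I and II pass electrons from NADH and succinate to ubiquinone, complex III passes them to cytochrome c and complex IV to oxygen, and complexes I, III and IV pump protons. Complex V, the ATP synthase, makes ATP from the proton gradient. Most subunits are encoded in the nucleus and imported, and hepatocytes, which are rich in mitochondria, use the chain to meet the energy demand of urea, glucose and protein synthesis.

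The study compared livers of CD-1 mice, an outbred stock, given a suspension of TiO2 nanoparticles by mouth (NP, 50 mg per kg body weight daily, stirred with ultrasound for 30 min) with livers of mice given the same volume of phosphate-buffered saline (Control). Each group has 1 RNA-seq library. The length of dosing, the number of mice behind each library and their age and sex have no entry in the labels. The series concerns stress of the endoplasmic reticulum and plasma glucose, and the question taken up here is whether subunit transcripts differ between the libraries. Values are FPKM, a fragment count divided by transcript length and library size, and their 95% intervals are the ones Cufflinks reports, which hold no variation between animals. With 1 library per group there is no replicate check and no test, so every difference below is between these 2 libraries.

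Both libraries carried the hepatocyte marker list at high levels, with Alb (albumin) at 21660 FPKM in Control and 30741 in NP. Of the 8 hepatocyte markers, 7 passed the filter described next, with a median log2 ratio of 0.27. The medians were -0.53 over 5 markers of sinusoidal endothelium, -0.55 over 4 of Kupffer cells and -0.24 over 4 of stellate cells. Their part in any subunit value was not tested, and fewer cells of a type cannot be told apart from less RNA per cell in such bulk samples. Read coverage per FPKM was 2.29 in Control and 2.93 in NP. The NP library was thus covered more deeply.

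Over all complexes, subunit transcripts stood at nearly the same level in both libraries. A filter at a mean level of 1 FPKM was passed by 78 of the 85 identifiers and by 10533 of all genes. Summed over the 78, the level was 11783 FPKM in Control and 12013 FPKM in NP. This is a ratio of 1.02 with an interval of 1.00 to 1.04, beside 1.03 over all 10533 genes. The median log2 ratio of (NP + 1) to (Control + 1) FPKM was 0.01, with quartiles of -0.10 and 0.14, beside a median of -0.03 and quartiles of -0.19 and 0.14 over all 10533 genes. Of the 78 genes, 40 were above 0 and 38 below.

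On that scale, 0 of the 78 genes were at least 1.5-fold higher in NP, beside 3.6% of all genes. At least 1.5-fold lower were 4 genes (Ndufb4, Cox7c, Cox5b and Atp5l2), or 5.13%, beside 5.33% of all genes. Of these, Atp5l2 matches by name but is annotated as a processed pseudogene in GENCODE vM21. The NP interval lay wholly above the Control interval for 5 genes (Atp5j2, Atp5g1, Ndufs6, Cox6a1 and Atp5g3), or 6.41%, beside 7.73% of all genes. It lay wholly below for 6 genes (Ndufb4, Cox7c, Cox5b, Ndufs3, Atp5f1 and Atp5b), or 7.69%, beside 9.58%. These shares of subunit genes are all close to or under those over all genes. Within 1.25-fold on the same scale were 67 of the 78, or 85.9%, beside 75.8% of all genes. Because subunits are abundant, genes at a mean level of 50 FPKM or more are a closer background, and there the share was 91.5% of 59 subunit genes beside 82.5% of 1368 genes.

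**Figure D1:**
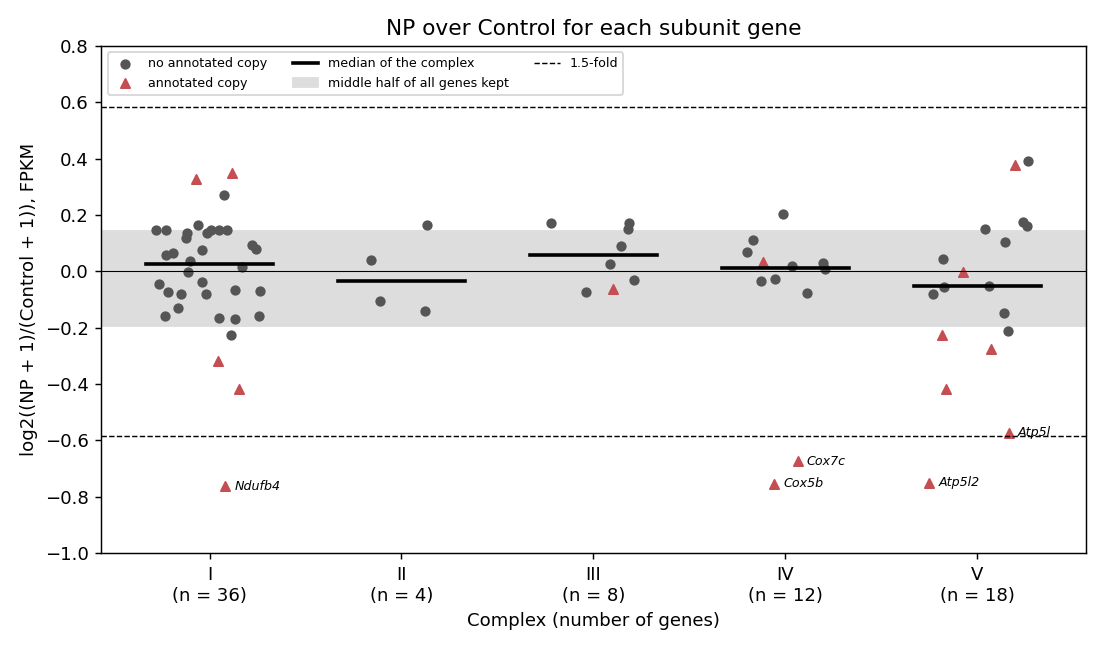
Each point is 1 of the 78 subunit genes, by complex, with the log2 ratio of (NP + 1) to (Control + 1) FPKM on the vertical axis, bars for medians per complex, a grey band for the quartiles of all 10533 genes, dashed lines at 1.5-fold, and triangles for genes with an annotated copy elsewhere in the genome. The complex medians lie between -0.05 and 0.06, and the 4 points under the lower dashed line, Ndufb4, Cox7c, Cox5b and Atp5l2, are all triangles.

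The 5 complexes stood in similar proportions in both libraries. Complex I made up 35.1% of subunit FPKM in Control and 34.9% in NP, and complex V 29.9% and 29.5%. Complex IV held 17.7% and 17.9%, complex III 13.0% and 13.5%, and complex II 4.25% and 4.18%. The NP to Control ratio of summed FPKM was 1.01 for complex I (interval 0.987 to 1.04), 1.00 for complex II (0.956 to 1.05), 1.03 for complex IV (0.989 to 1.07) and 1.01 for complex V (0.979 to 1.03). For complex III it was 1.06, and its interval of 1.01 to 1.11 lay above 1. That interval holds the summed ratio over all 10533 genes, 1.026 (1.021 to 1.030), so complex III did not stand apart from this background. The order of the complexes by median log2 ratio was complex III at 0.06, complex I at 0.03, complex IV at 0.01, complex II at -0.03 and complex V at -0.05. That span was smaller than the quartile range within complex I or complex V and larger than the range within complex IV (-0.05 to 0.04). The order depended on the genes counted: without the genes that have an annotated copy, described further on, the median of complex V was 0.04, second after complex III at 0.09.

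Levels between subunit genes, compared on the length-scaled FPKM values, spanned a far wider range than the libraries did. The highest gene, Ndufa4, stood 476 times above the lowest gene that passed the filter, Cox6b2, in Control. Pearson's r of log2(FPKM + 1) between the libraries was 0.99 over the 78 genes, which do not count as replicates. The median interval half-width of a subunit gene was 9.10% of its value in Control and 8.98% in NP.

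**Figure D2:**
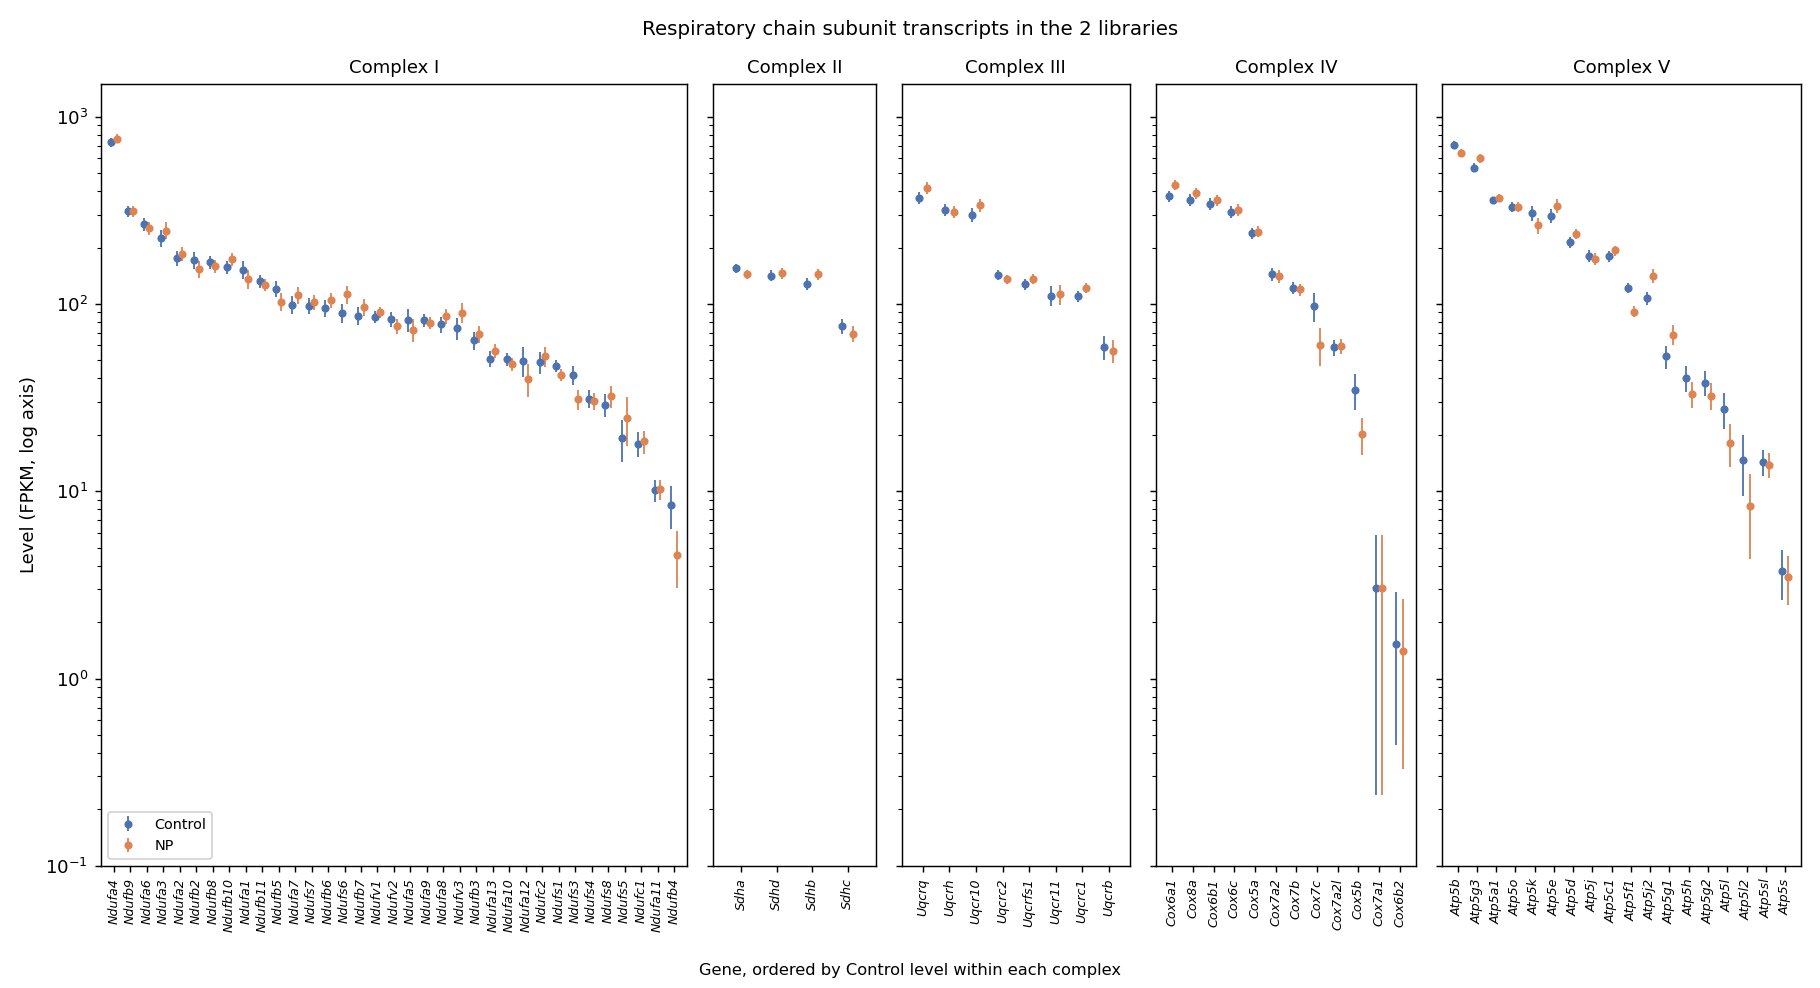
FPKM of 77 of the 78 subunit genes on a log axis, in panels by complex and ordered by Control level; blue points are Control, orange points are NP, and vertical lines are the 95% intervals within a library. The points overlap for most genes, while Ndufb4, Cox7c, Cox5b and Atp5f1 show NP visibly under Control and Atp5j2 shows NP above it.

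Complex I, NADH dehydrogenase, had 36 genes past the filter with a median log2 ratio of 0.03. Its 7 core subunits, which bind the flavin and the iron-sulfur clusters that carry electrons, summed to 489 FPKM in Control and 473 in NP (ratio 0.966, interval 0.921 to 1.01). Ndufv1, the flavin-binding subunit, was at 85.3 FPKM in Control and 90.2 in NP. Its partner Ndufv2 was at 83.0 and 75.8 FPKM, and Ndufs1, the largest iron-sulfur subunit, at 46.8 and 41.7 FPKM. These 3 genes lie within overlapping intervals in Control and NP.

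Among the core subunits near the quinone site, Ndufs7 was at 98.0 and 102 FPKM. Ndufs8 was at 28.9 and 32.1 FPKM. Ndufs3 was at 41.7 FPKM (37.0 to 46.4) in Control and 30.96 FPKM (27.2 to 34.7) in NP, 1.35-fold lower. Of the 7, Ndufs3 alone had intervals that did not overlap, and it is also the one with an annotated processed copy, Gm12251, at 62.8 FPKM in Control and 65.4 FPKM in NP. Ndufs3 also overlaps Kbtbd4 in the files' coordinates, and reads of the pair cannot be told apart where counting does not use strand, which is not stated.

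The peripheral modules of complex I were likewise close to level. The 10 genes of the NADH-oxidising module summed to a ratio of 1.03 (0.980 to 1.08), the 5 of the quinone-reducing module to 0.948 (0.885 to 1.02), and the 20 of the membrane arm and its interface to 1.01 (0.971 to 1.04). The highest levels were those of Ndufa4 (729.9 and 764 FPKM), Ndufb9 (314 and 313 FPKM) and Ndufa6 (267 and 253 FPKM). Ndufa4 is named as a complex I subunit and is now counted with complex IV. The lowest were Ndufb4 (8.47 and 4.58 FPKM), Ndufa11 (10.1 and 10.2 FPKM) and Ndufc1 (17.9 and 18.4 FPKM). Ndufb9 and Ndufb4, the highest and the lowest of these after Ndufa4, are both subunits of the membrane arm.

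The 3 highest ratios in complex I were those of Ndufs5, Ndufs6 and Ndufv3. Ndufs6, an accessory subunit needed to complete the NADH-oxidising module, was at 89.4 FPKM (79.1 to 99.7) in Control and 112 FPKM (100.4 to 124) in NP. Its 568-nt transcript was at 89.4 and 92.3 FPKM, while a 534-nt transcript had 0 in Control but 20.1 FPKM in NP. Its annotated copy Gm6415 was at 30.7 and 12.4 FPKM, and gene and copy summed to a ratio of 1.04 with overlapping intervals. Ndufs5 was at 19.1 and 24.6 FPKM and Ndufv3 at 74.3 and 89.9 FPKM, both with overlapping intervals. The lowest ratios were those of Ndufb4, Ndufs3 and Ndufa12, the last at 49.9 and 39.8 FPKM with overlapping intervals.

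Complex II, succinate dehydrogenase, belongs to the tricarboxylic acid cycle as well as to the chain, and no subunit of it is encoded by mitochondrial DNA. Sdha, the flavoprotein, was at 155 FPKM in Control and 144 FPKM in NP, and Sdhb, the iron-sulfur subunit, at 128 and 144. The membrane anchors were at 76.3 and 69.2 FPKM for Sdhc and at 142 and 146 FPKM for Sdhd. All 4 pairs of intervals overlapped, and 2 ratios were above 0 and 2 below. In both libraries Sdhc was the lowest of the 4, and its interval did not reach that of any other subunit of the complex.

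Complex III, the cytochrome bc1 complex, had all 8 genes past the filter, 5 with a ratio above 0, and every pair of intervals overlapped. Uqcrfs1, the Rieske iron-sulfur protein, was at 128 and 136 FPKM. The core protein Uqcrc1 was at 109.8 and 122 FPKM, and Uqcrc2 was at 143 and 135. Small subunits were higher, with Uqcrq at 370 and 417 FPKM, Uqcrh at 317 and 310.3 FPKM and Uqcr10 at 299 and 337 FPKM, while Uqcr11 was at 111 and 113 FPKM. The higher sum of complex III in NP therefore lay mainly in Uqcrq and Uqcr10, neither of which had separate intervals. Uqcrb, a ubiquinone-binding subunit, was listed lowest at 58.8 and 56.3 FPKM, while its annotated processed copies were higher, Gm16089 with 74.9 and 70.4 FPKM and Gm2962 with 269 and 216 FPKM.

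Complex IV, cytochrome c oxidase, has several subunits with tissue forms, and the forms known from liver stood highest. Cox6a1, Cox8a and Cox6b1 were the highest, at 376 and 433 FPKM, 359 and 389 FPKM, and 341 and 358 FPKM. Cox6c stood at 309.8 and 317 FPKM, Cox5a at 239 and 243 FPKM, Cox7a2 at 144 and 141 FPKM, Cox7b at 122 and 119 FPKM and Cox7a2l, which helps join complexes III and IV, at 58.7 and 59.6 FPKM. The intervals of Cox6a1 were 351 to 401 FPKM in Control and 406 to 460 FPKM in NP, so this gene alone among the widely expressed forms was separated upwards, by 1.15-fold.

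Heart and muscle forms were low or at 0. Cox6a2 was listed at 0 in both libraries, Cox8b at 0.0771 FPKM in Control and 0 in NP, and Cox7a1 at 3.03 and 3.05 FPKM with intervals of 0.238 to 5.83 and 0.240 to 5.87. Cox7a2 accordingly held 97.9% of the FPKM of Cox7a1 and Cox7a2 in each library. Ckm, Actc1, Tnnt2, Myh4, Myh6 and Mb, defining genes of striated muscle, were all listed at 0 in both libraries, and Tnnt3 was at 0.0137 FPKM in Control and 0 in NP. Of the lung or testis forms, Cox6b2 was at 1.53 and 1.404 FPKM, Cox4i2 at 0.00968 and 0, Cox7b2 at 0.00101 and 0.00288, and Cox8c at 0 in both. Ndufa4l2 and the second Ndufb8 identifier were also listed at 0 in both. A listed 0 can be a failed estimate, and no fold is given for these genes.

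Complex V, the ATP synthase, had 18 genes past the filter, of which Atp5s and Atp5sl match by name but encode no structural subunit (3.74 and 3.48 FPKM, and 14.4 and 13.8 FPKM). Atp5l2, described further on, also matches by name and is annotated as a processed pseudogene. The catalytic head summed to a ratio of 1.01 (0.973 to 1.05). Atp5b, the catalytic beta subunit, was at 708 FPKM (676 to 740.1) in Control and 639 FPKM (611 to 668) in NP. Atp5a1, the alpha subunit that forms the hexamer with it, was at 358 and 369 FPKM. The stalk subunits of the head were at 179 and 193 FPKM for Atp5c1 (gamma), 213 and 237 FPKM for Atp5d (delta) and 296 and 334 FPKM for Atp5e (epsilon). Of the 5 head genes, Atp5b alone was lower in NP, with separate intervals, and the other 4 were higher with overlapping ones.

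The 4 genes of the peripheral stalk, which holds the head still against the rotating ring, all had ratios below 0, as did 5725 of all 10533 genes. Atp5o was barely below, at a log2 ratio of -0.001. The 4 summed to a ratio of 0.933 (0.884 to 0.986), beside 1.03 over all genes. Atp5f1, the b subunit, was at 122 FPKM (114 to 130) in Control and 91.0 FPKM (84.8 to 97.1) in NP, 1.34-fold lower. Atp5o, which ties the stalk to the head, was at 329.7 and 329.5 FPKM, Atp5j (coupling factor 6) at 181 and 175 FPKM and Atp5h (the d subunit) at 40.3 and 33.1 FPKM. Atp5f1 alone of the 4 had separate intervals, and the lower sum lay mainly in this gene. Atp5f1 overlaps Wdr77 in the files' coordinates and has an annotated processed copy, Gm12231, at 138 FPKM in both libraries. The other genes of the stalk have such limits too. Atp5h has the processed copy Gm10250 at 203 and 210 FPKM, Atp5o has Gm5436 at 29.6 and 25.6 FPKM, and Atp5j overlaps Gabpa.

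The c ring, the rotor through which protons pass, is built of 1 mature protein encoded by 3 genes. Atp5g3 was at 534 FPKM (506 to 563) in Control and 598 FPKM (568 to 628) in NP, Atp5g1 at 52.4 FPKM (45.0 to 59.9) and 68.4 FPKM (60.04 to 76.8), and Atp5g2 at 38.0 FPKM (32.04 to 43.97) and 32.4 FPKM (27.1 to 37.7). The 3 summed to a ratio of 1.12 (1.05 to 1.19). Atp5g3 supplied 85.5% of the set in Control and 85.6% in NP, Atp5g1 8.39% and 9.79%, and Atp5g2 6.08% and 4.64%. The last 90 coding bases of each gene before the stop codon (GENCODE vM21, GRCm38) are shown because they encode part of the shared mature protein and show how far the genes differ in bases there, with capitals marking bases that differ from Atp5g3.
Atp5g3: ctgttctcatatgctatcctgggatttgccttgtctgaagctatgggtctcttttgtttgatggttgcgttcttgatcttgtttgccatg
Atp5g1: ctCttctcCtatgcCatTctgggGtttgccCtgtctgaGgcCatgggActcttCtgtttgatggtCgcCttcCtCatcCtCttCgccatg
Atp5g2: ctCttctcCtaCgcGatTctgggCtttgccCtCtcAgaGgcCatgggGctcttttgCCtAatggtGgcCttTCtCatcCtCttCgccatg
Over this stretch Atp5g1 differed from Atp5g3 at 17 of the 90 bases and Atp5g2 at 23. Atp5g1 has an annotated processed copy, Gm10039, and Atp5g2 shared 100% of its 31-base words with Gm10175 and Gm10231. Gm10175 and Gm10231 were listed with the same values as each other, 57.5 FPKM in Control and 59.0 FPKM in NP.

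Of the remaining membrane subunits, Atp5j2 (the f subunit) was at 107.7 FPKM (98.9 to 117) in Control and 141 FPKM (129 to 154) in NP, the highest ratio of all 78 genes at 1.31-fold. That ratio goes with a shift between its rows. A 955-nt transcript was at 107.7 and 77.7 FPKM, and a 540-nt transcript had 0 in Control but 63.7 FPKM in NP. Because FPKM is divided by transcript length, fragments assigned to a shorter transcript weigh more in the sum. The part of this shift in the 1.31-fold was not tested. Atp5k (the e subunit) was at 305 and 263 FPKM with overlapping intervals. Atp5l (the g subunit) was at 27.5 FPKM (21.6 to 33.3) and 18.1 FPKM (13.4 to 22.8), 1.51-fold lower in FPKM and just inside the 1.5-fold rule on the log2(FPKM + 1) scale.

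The 4 genes past 1.5-fold lower shared a property that the choice by name did not use: each has annotated copies elsewhere in the genome. A copy is defined here as another, non-overlapping gene that holds at least 25% of the 31-base words of 1 transcript of the gene. That transcript is the most abundant one found in the GENCODE vM21 annotation, or else the longest there. Most copies are processed pseudogenes, intronless insertions of a reverse-transcribed mRNA. The 25% limit was chosen after seeing the data, and any part of shared reads in the ratios was not tested. Of the 78 genes, 16 have such a copy and 62 have none. Of the 16, 4 were at least 1.5-fold lower in NP, 12 had a ratio below 0 and the median log2 ratio was -0.30. Of the 62, 0 were 1.5-fold apart in either direction and the median was 0.03. Over all genes, 182 of 1338 with a copy (13.6%) and 322 of 8913 without one (3.61%) were at least 1.5-fold lower in NP, while 45 and 319 were at least 1.5-fold higher. Fewer genes with a copy were thus higher than lower in NP, both over all genes and among the subunits. Of the 1338 genes with a copy, 831 had a ratio below 0. Their median log2 ratio was -0.09, beside -0.02 for the 8913 without one.

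**Figure D3:**
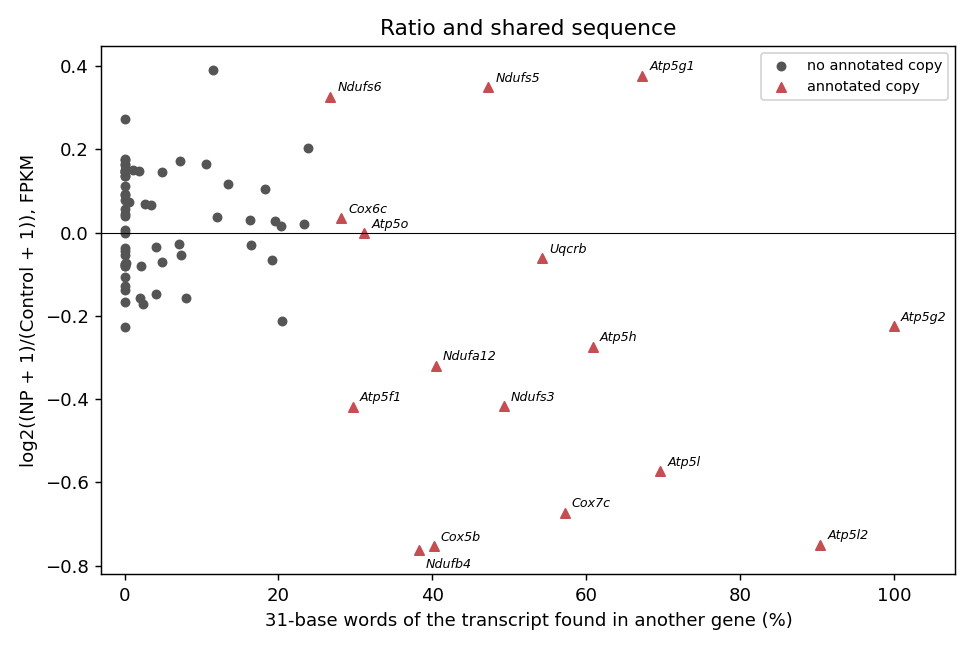
Each point is 1 of the 78 subunit genes. The horizontal axis gives the percentage of the 31-base words of 1 transcript per gene found in another gene. The vertical axis gives the log2 ratio of (NP + 1) to (Control + 1) FPKM, and named triangles are the 16 genes with an annotated copy. Points under 25% stay between -0.23 and 0.39, while named genes reach from -0.76 to 0.38.

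Ndufb4, a membrane-arm subunit of complex I (mm9 chr16:37647256-37654539), was at 8.47 FPKM (6.28 to 10.7) in Control and 4.58 FPKM (3.05 to 6.11) in NP, 1.85-fold lower. Its copy Gm3244 was at 63.1 and 73.5 FPKM. Cox5b, a subunit of complex IV on the matrix side (mm9 chr1:36748332-36750230), was at 34.6 FPKM (27.1 to 42.1) and 20.1 FPKM (15.7 to 24.6), 1.72-fold lower, and its copy Gm11273 was at 209.8 and 236 FPKM. Cox7c, a small membrane subunit of complex IV (mm9 chr13:86184421-86186509), was at 97.1 FPKM (79.8 to 115) and 60.6 FPKM (46.4 to 74.7), 1.60-fold lower, and its copy Gm12338 was at 514 and 570.3 FPKM. In these 3 pairs the intronless copy carried several times the level of the subunit gene in both libraries, and it was higher in NP where the gene was lower. The Control and NP intervals of the copy overlapped in all 3 pairs, while those of the gene did not.

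Atp5l2 (mm9 chr11:97629374-97629764) was at 14.7 FPKM (9.42 to 20.01) and 8.35 FPKM (4.35 to 12.3), 1.76-fold lower with overlapping intervals. It is itself annotated as a processed pseudogene of Atp5l, the g subunit of ATP synthase, in GENCODE vM21. Another copy of Atp5l, Gm10221, was at 236 and 266 FPKM, far above Atp5l itself. The following sequences are the last 90 coding bases of a gene and the best-matching stretch of its copy, from GENCODE vM21 transcripts. They show how little separates the pairs over this coding stretch, with capitals reserved for differing bases, of which there are 0 here.
Atp5l: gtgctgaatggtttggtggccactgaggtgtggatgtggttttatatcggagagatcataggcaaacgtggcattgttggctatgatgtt
Gm10221: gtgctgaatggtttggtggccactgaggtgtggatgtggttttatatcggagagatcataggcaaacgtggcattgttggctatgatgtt
Cox5b: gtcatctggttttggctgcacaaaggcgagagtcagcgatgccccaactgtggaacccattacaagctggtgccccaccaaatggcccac
Gm11273: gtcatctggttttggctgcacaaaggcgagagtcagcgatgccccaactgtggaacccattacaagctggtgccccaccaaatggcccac
Over the whole coding sequence, Gm10221 matched all 309 bases of Atp5l, Gm12338 all 189 bases of Cox7c and Gm3244 all 387 bases of Ndufb4, each without a difference. Gm11273, annotated as protein-coding, differed from the 387 coding bases of Cox5b at 3 positions. Over the whole transcript less was shared. The 31-base words found in another gene were 38.3% for Ndufb4, 40.2% for Cox5b, 57.2% for Cox7c and 69.6% for Atp5l. A read that lies within such a stretch fits the gene and the copy equally well, and how the authors' pipeline shared such reads is not given in the sources used here.

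Summed with its copies, the gene had a ratio nearer to 1 in 12 of the 16 cases. Where copies hold most of a sum, its ratio mainly follows the copies, whatever the gene itself does. The gene's own share in Control was 11.8% for Ndufb4, 14.2% for Cox5b, 15.9% for Cox7c and 8.46% for Atp5l. The sums therefore do not show why a gene was lower, which was not tested. The summed ratio was farther from 1 in 3 cases (Uqcrb, Cox6c and Atp5o) and equal in 1 (Ndufs5). Ndufb4 and its copy summed to 71.6 FPKM in Control and 78.1 FPKM in NP, Cox5b and its copy to 244 and 255.8 FPKM, Cox7c and its copies to 612 and 631 FPKM, and Atp5l with its copies, Atp5l2 among them, to 325 and 322 FPKM. The sums of Atp5l and Atp5l2 hold nearly the same genes and are counted separately. Over the 16 sums the NP to Control ratio ran from 0.852 to 1.29, with 0 sums 1.5-fold apart and a median log2 ratio of -0.01. The lowest sum was that of Uqcrb and the highest that of Ndufs5, whose copy BC002163 was listed at 0 in both libraries. With FPKM multiplied by transcript length, the ratio of Ndufs5 was 1.09. Separate intervals remained for the sum of Atp5f1 and Gm12231 (ratio 0.883) and for the sum of Atp5g1 and Gm10039 (1.29). The gene's own share of its sum was lower in NP for 10 and higher for 5 of the 15 genes with a copy above 0. In 12 of the 16 a copy stood above the gene itself in Control.

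**Figure D4:**
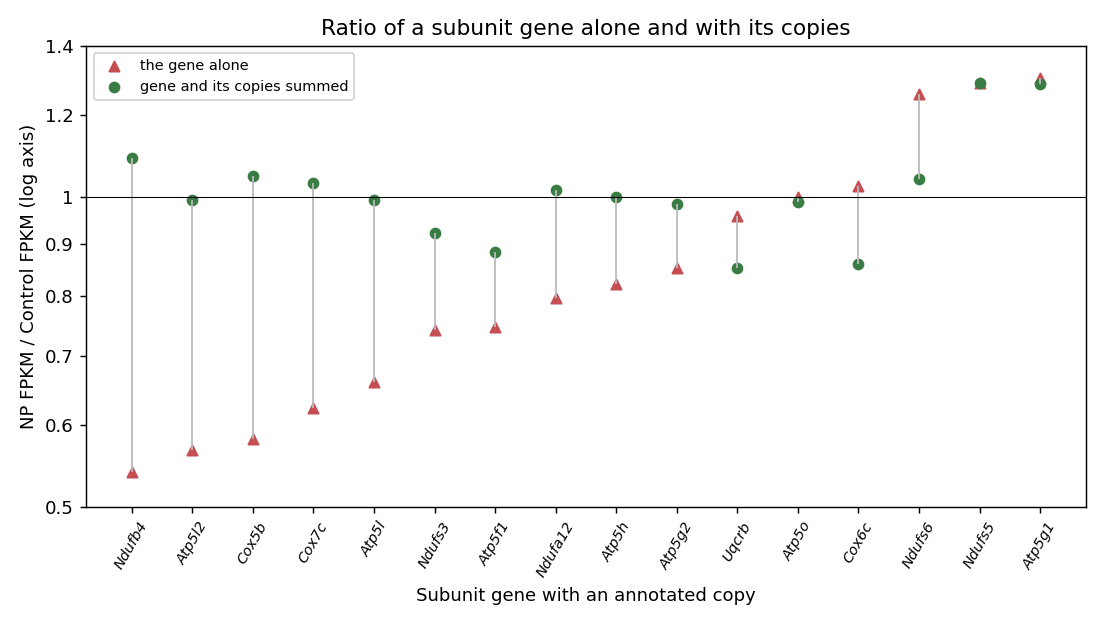
NP to Control ratio of FPKM, on a log axis, for the 16 subunit genes with an annotated copy; triangles are the gene alone, circles the gene and its copies summed, joined by a line. The 5 lowest triangles, Ndufb4, Atp5l2, Cox5b, Cox7c and Atp5l, run from 0.541 to 0.660, and their circles lie between 0.991 and 1.09. Copies make up most of each of these 5 sums.

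Transcript length and gene overlap were also set beside the ratios, and their part was not tested. The 4 genes at least 1.5-fold lower all have a longest transcript under 1000 nt, a class with 41 of the 78 genes. Of all genes of that class 17.1% were at least 1.5-fold lower, beside 3.63% of longer genes. None of those 4 genes overlaps an expressed gene in the files' coordinates, while 6 other subunit genes overlap one (Ndufb2, Ndufb5, Ndufs3, Cox6c, Atp5j and Atp5f1). Their median log2 ratio was -0.19, beside 0.02 for the other 72.

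Transcript rows moved more than gene totals did. For 58 of the 78 genes a single row held all but small parts of the level, as the only one with at least 5% of it. A row's share shifted by at least 10 percentage points between the libraries in 8 genes (Atp5j2, Cox5b, Cox7c, Ndufa5, Ndufb5, Ndufs1, Ndufs5 and Ndufs6). Ndufs1 had a 2918-nt transcript at 14.97 FPKM in Control but 0 in NP, and a 2661-nt transcript at 31.9 and 41.7 FPKM. Cox5b had a 478-nt transcript at 19.5 FPKM in Control but 0 in NP, and a 566-nt transcript at 12.4 and 17.3 FPKM. The lower total of Cox5b thus sat in 1 row, while the other transcript was higher in NP with overlapping intervals. A row listed at 0 can be a failed estimate, and the assignment of reads between rows was not tested.

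Subunit promoters also share short sequences. Of the 78 genes, 64 matched RefSeq promoter windows of GRCm38.p6, from 250 bases before to 50 after the gene's start. NRF1, GABP (an ETS factor) and YY1 are known regulators of nuclear genes for the chain, and exact matches were sought on both strands. GCATGCGC, an NRF1 core, was in 10 of the 64 (15.6%) beside 3.05% of all 27025 genes in the table. CCGGAAG, an ETS core, was in 16 (25%) beside 9.93%, and AAGATGGCG, a YY1 core, in 7 (10.9%) beside 1.64%. The 27025 genes were taken whatever their level in these libraries and were not matched to the subunits. The ETS and YY1 cores can overlap at the letters AAG. Excerpts of a pair of windows that hold both of the first cores are shown, 177 bases for Cox6a1 and 60 for Atp5l, with capitals on the matches and lower case elsewhere.
Cox6a1 (chr5:115348959-115349135, minus strand): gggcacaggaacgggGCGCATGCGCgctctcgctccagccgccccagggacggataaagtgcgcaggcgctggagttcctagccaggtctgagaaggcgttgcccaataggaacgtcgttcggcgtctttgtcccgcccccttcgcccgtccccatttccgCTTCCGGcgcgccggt
Atp5l (chr9:44920933-44920992, minus strand): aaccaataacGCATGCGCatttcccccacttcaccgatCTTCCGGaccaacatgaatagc
The median log2 ratio was 0.02 in genes with the NRF1 core and 0.03 without, 0.05 and 0.02 for the ETS core, and 0.04 and 0.03 for the YY1 core. These differences were not tested.

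Regulators of mitochondrial gene expression were low to moderate in level. Of the 14 listed, 13 lay within 1.5-fold. Ppargc1b, a coactivator of mitochondrial genes, was at 3.32 FPKM (2.68 to 3.97) in Control and 1.04 FPKM (0.709 to 1.37) in NP. Its relative Ppargc1a was at 1.27 and 1.34 FPKM, and Esrra, a nuclear receptor that works with both, was at 20.4 and 25.04 FPKM with the NP interval above. Nrf1 was at 2.98 and 3.43 FPKM, Tfam, which packages and transcribes mitochondrial DNA, at 24.0 and 26.2 FPKM, and Gabpa at 14.4 and 12.2 FPKM.

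Among factors that assemble the complexes, which were lower in level (median 9.52 FPKM in Control, beside 107 for the subunits), 31 of 43 listed genes were analysed and 28 passed the filter. Of these 28, 2 were higher and 3 lower in NP by 1.5-fold or more, beside the 3.6% and 5.33% of all genes. Acad9, which helps assemble complex I, had 6.15 FPKM (5.14 to 7.15) in Control and 13.0 FPKM (10.2 to 15.8) in NP. Ndufaf4, which acts on the same complex, was at 14.8 FPKM (11.7 to 17.9) and 7.48 FPKM (6.25 to 8.70). For complex III, Bcs1l, which inserts the Rieske protein, was at 8.67 FPKM (6.83 to 10.5) and 5.45 FPKM (4.10 to 6.79). Lyrm7, a chaperone of that protein, was at 1.74 and 0.264 FPKM with overlapping intervals. Cox16, a complex IV factor, had 0 in Control but 67.2 FPKM in NP, and Surf1, Ttc19 and Foxred1 at 0 in both. Such a 0 can be a failed estimate. Neither Acad9 nor Ndufaf4 has an annotated copy or overlaps an expressed gene in the files' coordinates.

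Lists that border on the chain held 0 genes past 1.5-fold among those that passed the filter. All 14 tricarboxylic acid cycle enzymes lay within 1.5-fold. Ogdh, part of the oxoglutarate dehydrogenase complex, was at 46.6 and 42.1 FPKM, and Dlst, another part of it, at 81.3 and 91.0 FPKM. Of 12 genes of coenzyme Q synthesis, 11 passed the filter and all 11 lay within 1.5-fold. Coq9 was at 53.9 and 66.9 FPKM with the NP interval above, and Coq10b was at 13.1 and 9.60 FPKM. The 8 carriers and subunits outside the name rule lay within 1.5-fold too, with Cyc1 (cytochrome c1) at 122 and 139 FPKM, Ndufab1 at 29.5 and 40.0 FPKM, Cycs at 15.6 and 14.3 FPKM and Usmg5 at 60.1 and 45.9 FPKM. Of the 13 mitochondrially encoded subunits, 11 passed the filter with a median log2 ratio of 0.03. The NP interval lay wholly above for 4 of them (36.4%, beside 7.73% of all genes) and wholly below for 3 (27.3%, beside 9.58%). Among all genes at a mean level of 50 FPKM or more, these shares were 19.2% and 14.9%. The 11 genes stood far higher, at 1768 to 12172 FPKM in Control. The gene mt-Nd6 was at 1858 and 1481 FPKM, while mt-Atp8 had 14644 FPKM in Control but 0 in NP and mt-Nd4l had 0 in both.

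**Figure D5:**
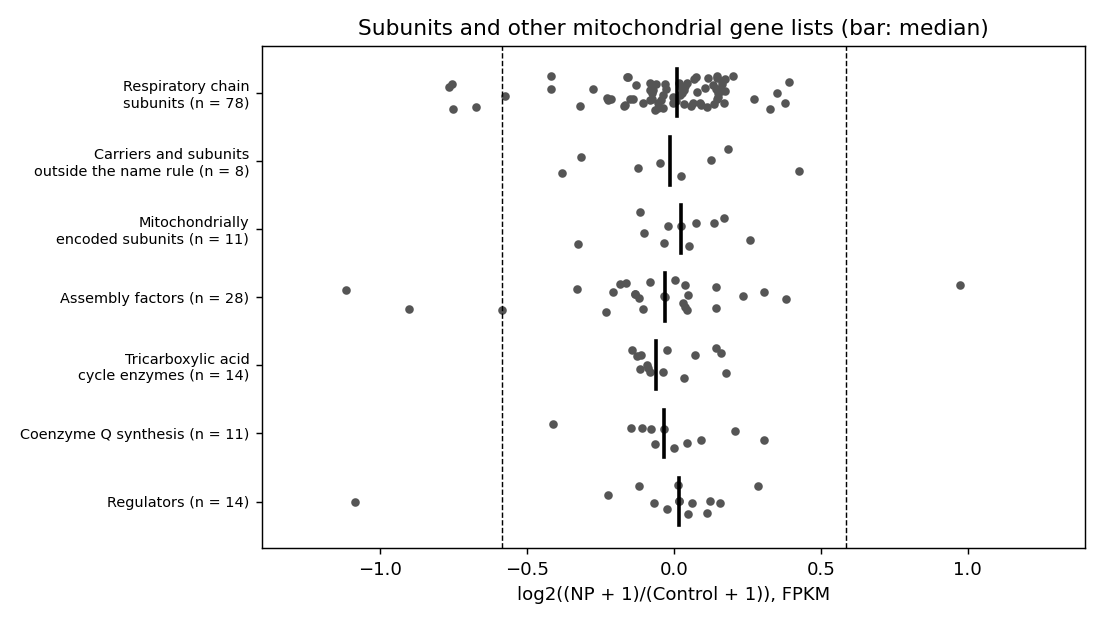
Log2 ratio of (NP + 1) to (Control + 1) FPKM for the 78 subunit genes and the members past the filter of 6 other mitochondrial gene lists; each point is a gene, bars are medians and dashed lines mark 1.5-fold. All list medians lie between -0.06 and 0.03, with points past the dashed lines among the subunits, assembly factors and regulators; Cox16, listed at 0 in Control, lies off the axis and is not drawn.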

How the data were processed

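The labels describe livers frozen in liquid nitrogen, Trizol RNA and Illumina TruSeq libraries. The submitters' processing notes name TopHat2 2.1.0, Cufflinks 2.2.1.0 and the build mm9, with their roles and settings not given in the sources used here. Per the file headers, the deposited tables are in the isoform tracking format of Cufflinks and hold FPKM with a 95% interval and a status for 119289 rows, including 31633 spans of whole genes. Their coverage column, per the file headers, is a signal not scaled to library size.

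FPKM was summed by gene identifier, and interval half-widths were combined in quadrature, which leaves out covariance between rows and gives a gene at 0 an interval of no width. The filter required a mean of 1 FPKM or more, OK status in every row, a longest transcript of 300 nt or more and no small RNA name. Ratios are log2((NP + 1)/(Control + 1)), which understates differences of low genes. Samples were grouped by their titles, 1 per group, so no test was run. The summing and counting were tested on simulated data. Members and lists were chosen with earlier results of these data known.

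Every gene meeting the name rule was counted; named with values were complexes II, III and V, the complex I core, the forms of complex IV, the extremes of each complex, and members past 1.5-fold, at 0 or outside the filter. Of the genes this rule names, 2 are not reported here. From other lists, genes past 1.5-fold and up to 3 at each end were named. Assignment to modules is background knowledge.

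Shared sequence was counted as 31-base words of 1 GENCODE vM21 transcript (GRCm38) per gene found on either strand in other genes. All 85 identifiers matched. For 10251 of the 10533 genes a value was had. Coordinates marked mm9 come from the files, and those of promoters (RefSeq) from GRCm38.p6, without conversion. Alternatives covered pseudocount, filter, scaling, rows used, status and membership. Python 3.11.15, pandas 2.3.3, numpy 2.4.6, numba 0.67.0 and matplotlib 3.10.9 were used.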

Additional observations from a re-analysis of the deposited data

How the results depend on the processing

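With 1 library per group, all values describe the libraries and no difference could be tested. No paired analysis was possible because each group holds 1 library. Of 228 values recomputed under alternatives, 223 stayed within the interval half-width of the reported value (a count, within 1.5 times) and 5 did not. A change of sign was seen in 3 values: the median of complex V was 0.04 without genes that have a copy (-0.05 as reported), its summed ratio was 0.989 with the highest row only (1.01), and the summed ratio of complex II was 0.997 with libraries scaled to the same transcript total (1.00). The count of subunit genes at least 1.5-fold lower, 4 as reported, was 2 with a pseudocount of 5. It was 0 without the genes that have an annotated copy and 0 with genes and copies summed, which are alternatives chosen after seeing the data, as was the 25% that defines a copy. The summed FPKM ratio of all subunits, 1.02 as reported, was 1.04 with NP scaled to a median log2 ratio of 0 and 1.04 with both libraries scaled to the same upper quartile. The cause was not tested. These scalings shifted log2 ratios by 0.03. The count at least 1.5-fold higher was 0 under all alternatives run, and the median over all subunits ran from 0.00 to 0.04. Depth limits the genes of a few FPKM most, with interval half-widths of up to 92.1% of the value.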
